A study of Mus musculus with 8 samples.

Results

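Ribosome footprints of Gcn2 KO cells were compared with those of Gcn2 WT cells after 1 h in leucine-free medium. The comparison rests on 2 of the 8 libraries of the study, 1 footprint library for each genotype. It covers every gene whose mean raw count over the 4 footprint libraries (WT and KO, replete and leucine-free) was at least 30, which took in 9489 of 55536 annotated genes. Of these, 9171 were protein-coding and 318 belonged to another class or had none. The cells were KRPC-A, a PDAC-like (pancreatic ductal adenocarcinoma-like) line from tumours of genetically engineered mice on a C57BL/6 background. Per the labels, the WT cells carried intact Gcn2 and the KO cells a disrupted Gcn2, and each library came from cells moved for 1 h either to medium with all amino acids or to medium without leucine. RNA-seq libraries of the same 4 states were used to set footprints beside mRNA. The labels name no other allele or agent, and do not say how the knockout was made or whether the KO cells were 1 clone.

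GCN2, the product of Eif2ak4, is a kinase that binds uncharged transfer RNA and phosphorylates the initiation factor eIF2alpha. Phosphorylation lowers the supply of initiator transfer RNA, which reduces initiation on most mRNAs and favours the coding sequence of mRNAs such as Atf4 that carry upstream open reading frames (uORFs). ATF4 in turn activates genes for amino acid synthesis, uptake and stress adaptation. A ribosome footprint is the stretch of mRNA that a ribosome shields from nuclease, so footprint counts follow the number of ribosomes on an mRNA, which depends on both the amount of mRNA and how densely it is translated.

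The footprint libraries held 2671491 counted reads in WT and 4563018 in KO leucine-free cells, so the WT library was the shallowest of the 4. In it 74 of the protein-coding genes called higher below had fewer than 10 counts. Levels are given in counts per 1000000 (CPM) after scaling by trimmed mean of M-values (TMM), and ratios as log2 of KO over WT with a 95% interval that covers counting error only. With 1 library per group there is no spread between cultures and no test, and each ratio compares a pair of libraries, not the genotypes they stand for. A gene is called higher or lower when its ratio was at least 2-fold, a log2 of 1, and its interval excluded 0. Scaling makes every level relative to the other genes of its library, so a change in translation of all mRNAs together would not show. Markers of the labelled cell type were mixed. Keratin genes Krt8 and Krt18 had 51.6 and 192 CPM in WT and 113 and 423 in KO leucine-free footprints. The ductal keratin Krt19 and the epithelial adhesion gene Epcam had 1 to 2 counts in each leucine-free footprint library. The mesenchymal filament gene Vim, named after its values were seen, had 5594 CPM in WT and 4868 in KO. No acinar or endocrine marker reached the count minimum, and 1 of 15 immune and endothelial markers did, Cd14.

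In all, 485 genes (5.11%) were called higher and 216 (2.28%) lower in KO than in WT leucine-free footprints. Among protein-coding genes the numbers were 461 (5.03%) and 202 (2.20%), with a median log2 ratio of 0.01 and 90% of the genes between -0.77 and 1.01. Counts of called list members below are to be read beside these shares. The highest ratio was that of Btg2, a growth-responsive early gene, at 4.79, and the lowest that of Grb10, an imprinted inhibitor of insulin signalling, at -8.21. Near the count minimum, calls were made on both sides of it. Of 215 genes with mean counts from 30 to under 35, 36 were called higher and 13 lower, and of 238 with mean counts from 25 to under 30, 30 and 19.

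**Figure D1:**
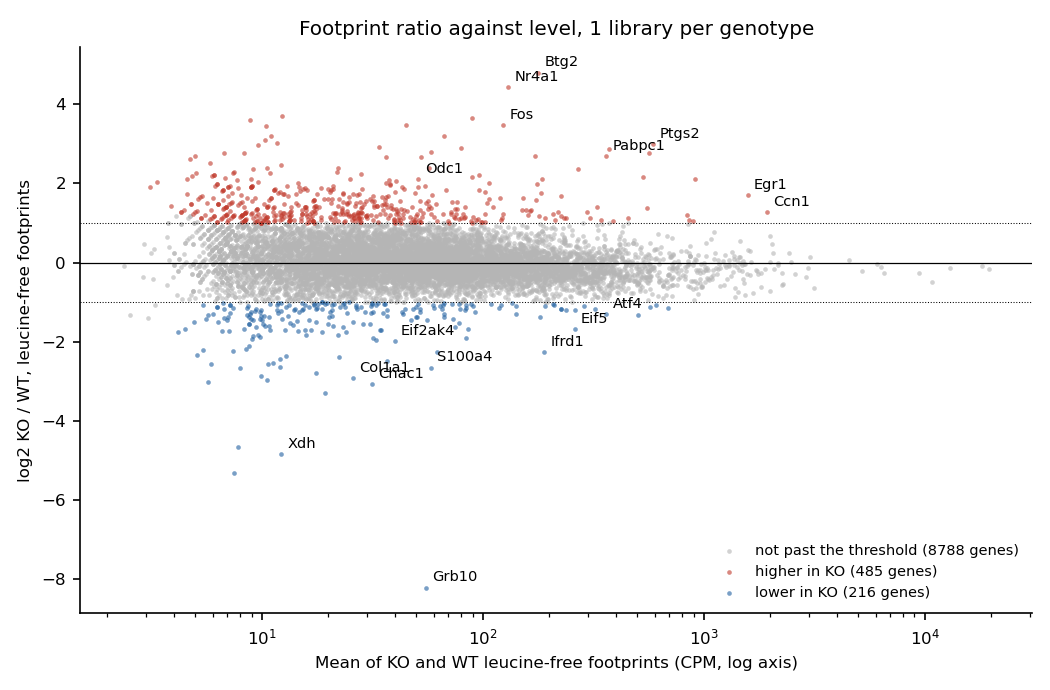
Each point is 1 of the 9489 genes, with its mean leucine-free footprint level in CPM on a log axis and its log2 KO over WT ratio on the vertical axis. Red points are the 485 genes called higher, blue points the 216 called lower and dotted lines mark 2-fold. Btg2 and Nr4a1 stand at the top and Grb10 at the bottom, and Egr1 and Ccn1 are the most abundant of the labelled genes.

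With the stricter demand that the whole interval lay past 2-fold, 136 genes (1.43%) were higher and 74 (0.780%) lower.

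The same genotypes in replete medium gave fewer calls, 182 higher (1.92%) and 108 lower (1.14%) over all genes. There 179 protein-coding genes (1.95%) were higher and 86 (0.938%) lower in KO footprints. Of the 461 genes higher without leucine, 112 (24.3%) were also higher in replete medium, which is 62.6% of the replete calls. Of the 202 lower genes, 56 (27.7%) were also lower there, 65.1% of the replete calls. No protein-coding gene was called in opposite directions. Leucine-free RNA, over the 9099 protein-coding genes measured in both assays, had 263 genes (2.89%) higher and 170 (1.87%) lower. Over these genes footprints had 455 higher and 197 lower (2.17%). RNA was also called in the same direction for 144 of 455 higher footprint genes (31.6% of them and 54.8% of the RNA calls) and for 63 of 197 lower ones (32.0% and 37.1%). The footprint and RNA calls were opposite for 2310009B15Rik and Ift57 only, which are named after their values were seen. Across genes, which are not independent replicates, the leucine-free footprint ratio had a Spearman rho of 0.47 with the replete footprint ratio and 0.42 with the RNA ratio, and these ratios share no library.

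The 4 footprint libraries sorted the called protein-coding genes into patterns. In 84 of the 461 higher genes both KO libraries lay at least 2-fold above both WT libraries, in 57 the KO leucine-free library lay 2-fold above the other 3, and in 43 the WT leucine-free library lay 2-fold below the other 3. The remaining 291 had none of these patterns. Among the 202 lower genes the numbers were 43 with both KO libraries below, 21 with the KO leucine-free library alone below and 13 with the WT leucine-free library alone above, and 130 had none. Some genes fell under more than 1 pattern. A gene for which 1 library stood apart rests on that library, and no second culture is there to compare it with.

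Eif2ak4 itself had 546 footprint counts with amino acids and 156 without leucine in WT cells, and 47 and 70 in the matching KO libraries. Below, 4 values for a gene always stand in this order, WT with amino acids and without leucine, then KO with amino acids and without leucine. The gene (ENSMUSG00000005102) lies on chromosome 2 of GRCm38 at 118388618 to 118475234. Both KO libraries were below both WT libraries, with a log2 ratio of -3.09 in replete footprints. KO footprints without leucine were 25.1% of WT, a log2 ratio of -1.98 (-2.42 to -1.58). The RNA ratio without leucine was -2.08, so footprints per mRNA differed little there, by 0.10 on the log2 scale. The reads that remain do not say whether a protein was made, since the labels do not name the disrupted exons.

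The list of mRNAs whose translation depends on uORFs had the lowest median of the lists described. Of 14 measured members 6 were called lower and none higher, and the list's median log2 ratio was -0.78, against 0.01 for all protein-coding genes. In RNA none of the 14 was called in either direction and the median was -0.10. In replete footprints the median was -0.24 with 3 called lower.

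Atf4, the transcription factor at the centre of this response, had 178 footprint CPM (169 to 187) with amino acids and 516 (488 to 546) without leucine in WT cells. KO cells had 199 (189 to 211) and 209 (196 to 223). The WT leucine-free library was the only high one. The KO over WT ratio was -1.30 (-1.43 to -1.18) without leucine and 0.17 in replete medium. Atf4 RNA was 489 CPM in WT and 524 in KO leucine-free cells, a ratio of 0.10, so the footprint ratio lay -1.40 from the RNA ratio on the log2 scale. Counts run over all exons and include footprints on the Atf4 uORFs as well as on its coding sequence.

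Ifrd1, a transcriptional coregulator whose mRNA carries a uORF, had the lowest ratio of the list. Its footprints were 112, 314, 46.8 and 65.8 CPM, a ratio of -2.26 (-2.46 to -2.06) without leucine. The WT leucine-free library was the highest, and both KO libraries were below both WT libraries, with a replete ratio of -1.26. Ppp1r15a and Ppp1r15b encode the inducible and the constitutive regulatory subunits of the eIF2alpha phosphatase. Ppp1r15a had 9.68, 34.8, 6.49 and 9.62 CPM. Ppp1r15b had 124, 129, 111 and 54.8 CPM. Both were called lower, at -1.84 and -1.24, but from different libraries. For Ppp1r15a the WT leucine-free library was the high one, and for Ppp1r15b the KO leucine-free library was the low one.

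Ddit3 encodes CHOP, a stress-induced transcription factor, and Atf5 a relative of ATF4. Ddit3 had footprint counts of 21, 71, 4 and 37, a leucine-free ratio of -1.76 (-2.39 to -1.19) and a replete ratio of -1.85. KO levels were thus below WT in both media, and the leucine-free minus replete difference was 0.09 (-1.49 to 1.66), an interval wide enough to hold a 2-fold difference either way. Exons of this Ddit3 entry overlap another entry of the same name on the same strand, and Mars and Gm4189 on the opposite strand. Reads in such overlaps were not counted, so the Ddit3 values cover only part of the locus. Atf5 had a ratio of -1.70 with RNA at -0.86, and was low in replete footprints as well (-1.29). Bace1, a membrane protease (0.21), Cebpb, a transcription factor of the C/EBP family (0.34), and Tmem183a (0.48) had the highest ratios of the list and were not called.

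**Figure D2:**
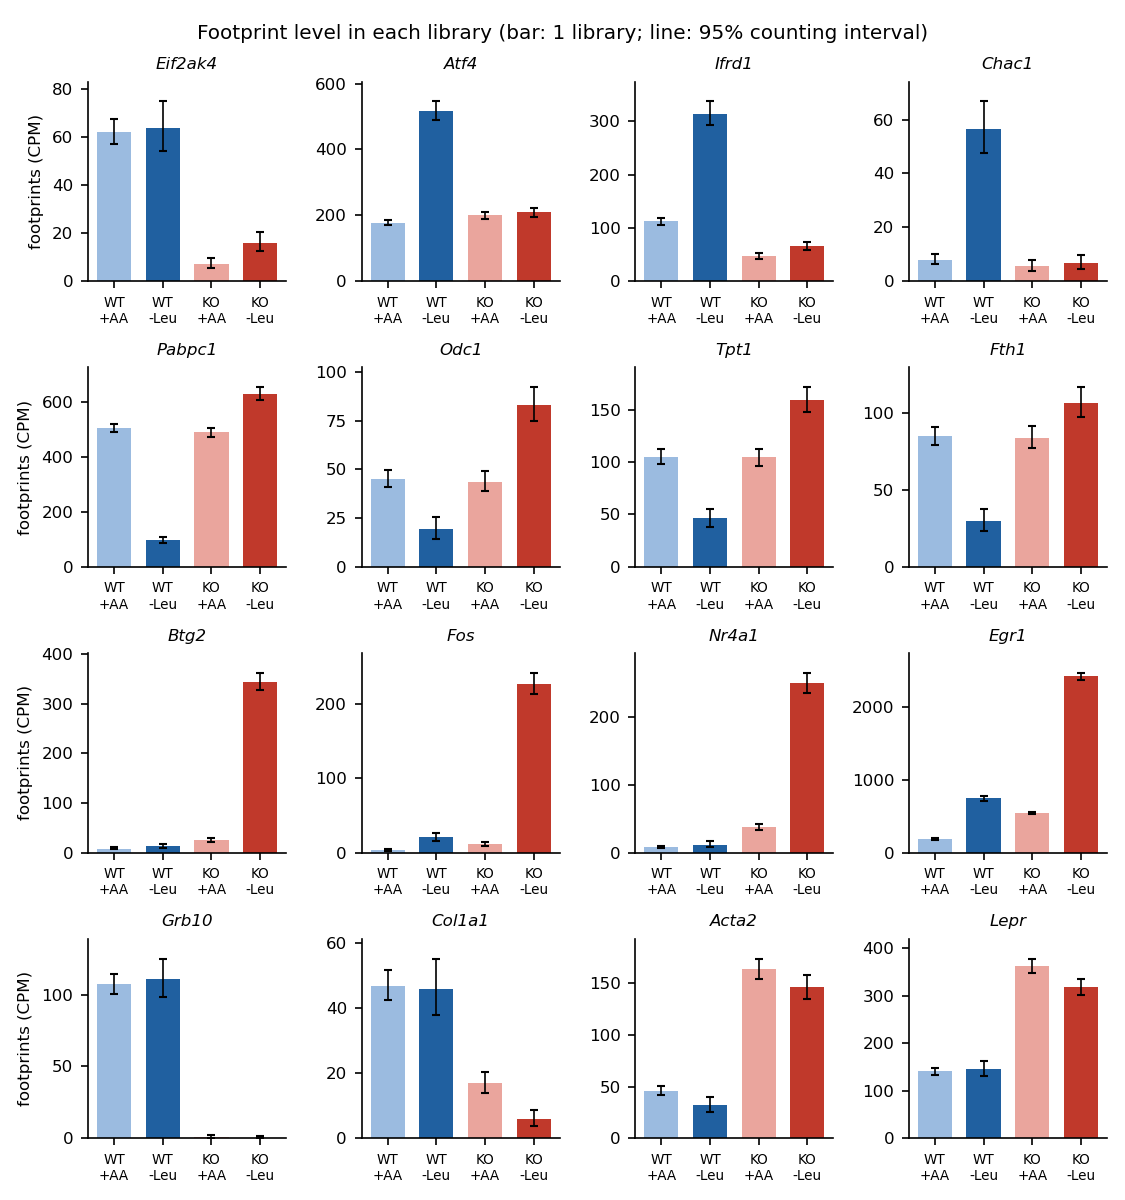
Bars give the footprint level of 16 genes in CPM in the 4 libraries (WT in blue, KO in red, pale for replete and dark for leucine-free medium), with 95% exact Poisson intervals as lines. The rows show Eif2ak4 and genes of the ATF4 axis, genes low in WT leucine-free cells, early genes high in KO leucine-free cells, and genes that differed by genotype in both media. Atf4 and Chac1 are high in the WT leucine-free library only, and Pabpc1 is low there only.

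Among the ATF4 and CHOP target genes 7 of 30 measured members were called lower and 1 higher, with a median of -0.57. The list shares Atf5, Cebpb, Ddit3, Ppp1r15a and Sesn2 with the uORF list, so the lists are not separate results. Of the 7, the WT leucine-free library lay 2-fold above the other 3 in 5. Of the 7, 3 were also called lower in RNA and 2 in replete footprints. RNA had a list median of -0.35 and replete footprints -0.20.

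Chac1, an enzyme that degrades glutathione, had 70, 138, 36 and 29 footprint counts, which scale to 7.97, 56.5, 5.56 and 6.64 CPM. Only the WT leucine-free library was high, and KO footprints were 8.50-fold lower there (-3.06 on the log2 scale, -3.72 to -2.50). The RNA ratio was -2.77, and footprints and RNA differed by -0.29 (-0.93 to 0.34). Herpud1, which takes part in the degradation of endoplasmic reticulum proteins, went the same way, with 54.3, 116, 43.0 and 40.3 CPM and ratios of -1.52 in footprints and -1.57 in RNA. Trib3, a pseudokinase induced by CHOP, had ratios of -1.61 and -1.89. Psph, the last enzyme of serine synthesis, was called lower at -1.08, and its level in replete medium was lower in KO cells as well (-0.66). Atf3, a stress-induced repressor that also stands in the list of immediate early genes, was the member called higher. It had 27.4 CPM in WT and 90.3 in KO leucine-free footprints and a ratio of 1.71 (1.34 to 2.11). The mTORC1 inhibitor Ddit4 had 234 and 457 CPM and a ratio of 0.97, just short of the call, and Vegfa, a vascular growth factor, had 0.54.

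The promoter sequences of the listed targets and of the other genes were also searched. ATF4 dimers with C/EBP proteins bind the composite C/EBP-ATF element, searched for here as TGATGNAA on both strands in windows from 250 bases before to 50 after the RefSeq gene start of GRCm38.p6. It was present in 7 of 26 ATF4 and CHOP targets with a window (26.9%), in 9 of 169 genes called lower (5.33%), in 7 of 370 called higher (1.89%), in 178 of 7363 measured protein-coding genes (2.42%) and in 3.97% of all windows of the table. A match is a description of letters and not a shown binding site. The list holds genes named as ATF4 and CHOP targets, which may have been named through this element. Its share is therefore not separate evidence about them. Chac1, Herpud1 and Trib3 of the list are also among the genes called lower, so these shares overlap. The matches of 4 targets named above, all of them called, are printed on the strand of the gene with the motif in capitals. The remaining matches were in Asns (-0.26), Slc1a4 (-0.48) and Pycr1 (-0.83), which were not called and are named for their match only. Chac1, Herpud1 and Trib3 were called lower and Atf3 higher, and the likeness of the capitals was fixed by the search. TTGCATCA and TTACATCA are the element read on the other strand.
Chac1 (chr2:119351038-119351067): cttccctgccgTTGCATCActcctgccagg
Herpud1 (chr8:94386306-94386335): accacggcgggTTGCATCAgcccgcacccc
Trib3 (chr2:152344028-152344057): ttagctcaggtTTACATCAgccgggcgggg
Atf3 (chr1:191183425-191183454): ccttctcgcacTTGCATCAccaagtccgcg

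Genes that charge transfer RNA or move and sense amino acids differed by less. Of the 20 cytosolic aminoacyl-tRNA synthetases 18 had ratios below 0 and none was called, with a median of -0.37 (replete footprints -0.13, RNA -0.28). Only 2 of the 20 were above 0 in replete footprints too, and 4 in RNA. The leucyl-tRNA synthetase Lars had the lowest ratio. It had 551, 588, 525 and 346 CPM, so the KO leucine-free library was the low one, and its ratio was -0.76 (-0.87 to -0.66) without leucine and -0.07 in replete medium. Qars and Vars, the glutaminyl and valyl enzymes, were the 2 members above 0 in leucine-free footprints, at 0.30 and 0.20.

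Of 16 amino acid transporters 1 was called, with a list median of -0.39. As 6 of the 16, Slc3a2 and Slc38a2 among them, are also ATF4 and CHOP targets, this list is not separate from that one. It was the glutamate transporter Slc1a3, with 538 and 129 counts in WT and 123 and 70 in KO cells, and ratios of -1.71 without leucine and -1.69 with it. Slc3a2, the heavy chain shared by several transporters including the leucine exchanger, had 737 CPM in WT and 384 in KO leucine-free footprints (-0.94). Slc38a2, a neutral amino acid transporter, had 639 and 387 CPM (-0.72) with an RNA ratio of 0.02. Amino acid sensing genes and eIF2alpha kinases had a median of -0.05, with 3 of 34 lower and 1 higher (all protein-coding genes 2.20% and 5.03%). Besides Eif2ak4 the lower ones were Rragb, a Rag GTPase (-1.46), and Lamtor3, a subunit of the Ragulator scaffold (-1.12), and the higher one was the arginine sensor Castor1 (1.17, from 11 and 45 counts). In branched-chain amino acid catabolism 17 of 20 genes had ratios below 0 (median -0.34). Dbt, the transacylase core of the branched-chain ketoacid dehydrogenase, was lower at -1.36, and Bckdk, the kinase that inhibits this complex, higher at 1.00. Dbt was also called lower in replete footprints (-1.03) and in leucine-free RNA (-1.09), while Bckdk had 0.08 and 0.21 there.

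Footprints of ribosomal proteins were on the high side in KO cells while their RNA was not. For the small subunit 20 of 24 measured members had ratios above 0 with a median of 0.33, and 2 were called higher. For the large subunit 27 of 41 were above 0 with a median of 0.29, and 1 was called lower. Over all protein-coding genes 5.03% were called higher and 2.20% lower. RNA medians were -0.24 and -0.15, and replete footprint medians -0.10 and -0.14. Ribosomal protein mRNAs start with a 5' terminal oligopyrimidine (TOP) tract, through which mTORC1 controls their translation. Many have near-identical pseudogene copies, and reads that map to several places were not counted, so their levels are uncertain.

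Rps20, a small-subunit protein, had 119.8 CPM (113 to 127) with amino acids and 58.6 (49.3 to 69.0) without leucine in WT footprints, against 118 (109.7 to 127) and 181 (169 to 194) in KO. Without leucine the WT library was the lowest and the KO library the highest, which gave a ratio of 1.63 without leucine and -0.02 with it. Rps7 was called higher from 8 WT counts. Rpl32, of the large subunit, was lowest in the same WT library, with 238, 122, 231 and 242 CPM and a ratio of 0.98, just short of 2-fold. The called lower member was Rpl39 at -1.19, which lies on the X chromosome and was also lower in replete medium (-1.17).

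Among 23 other 5' TOP mRNAs 4 were called higher and none lower, while the list's median was 0.02. The 4 were Pabpc1, Tpt1, Eef1a1 and Eef1b2. Pabpc1 encodes the protein that coats poly(A) tails in the cytoplasm. It had 4436, 237, 3167 and 2747 footprint counts. As levels these were 505, 97.0, 489 and 629 CPM, so the WT leucine-free library alone was low. KO footprints were 6.49-fold higher than WT without leucine (2.70 on the log2 scale, 2.51 to 2.89) and level with WT in replete medium (-0.05). Its RNA ratio was -0.64, so footprints and RNA differed by 3.34 on the log2 scale. Tpt1, the translationally controlled tumour protein, had 105, 46.3, 104 and 159 CPM and a ratio of 1.78 (1.49 to 2.08) with RNA at 0.24. Its pseudogene Tpt1-ps3, picked after its values were seen, had 5 WT and 87 KO leucine-free counts, and reads of the 2 loci may be mixed. The elongation factor genes Eef1b2 and Eef1a1 had ratios of 1.06 and 1.08 with RNA at -0.23 and -0.25. In replete medium these ratios were 0.13 and 0.55. The lowest of the list, the initiation factor subunits Eif3h (-0.42) and Eif3l (-0.36) and the nascent chain factor Btf3 (-0.40), were not called.

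Footprints also exceeded RNA for genes outside the TOP class. Over the 9099 genes measured in both assays the footprint ratio exceeded the RNA ratio by at least 2-fold, with an interval that excluded 0, for 399 (4.39%), and fell short of it by as much for 152 (1.67%). Odc1, the first enzyme of polyamine synthesis, had 45.2, 19.2, 43.7 and 83.2 CPM in footprints and 248 and 216 in WT and KO leucine-free RNA. Its footprint ratio was 2.10 (1.67 to 2.58) and its RNA ratio -0.20. Fth1, the ferritin heavy chain that stores iron, had 85.0, 29.9, 84.1 and 107 CPM and ratios of 1.83 and -0.19. In both genes the WT leucine-free library was the lowest and the KO leucine-free library the highest, and the replete libraries lay between them. The RNA-binding protein Pcbp2 (1.40 in footprints, 0.20 in RNA), the chromatin factor Mta1 (1.63, -0.69) and the mitotic ubiquitin ligase subunit Anapc5 (1.41, -0.40) also had footprint ratios above their RNA ratios. These 3 were picked after their values were seen.

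Fewer genes had footprints below their RNA. Rbm3, a cold-inducible RNA-binding protein, had 74.4 and 46.3 CPM in WT and 47.3 and 15.8 in KO footprints, a leucine-free ratio of -1.54 against 0.30 in RNA. It lies on the X chromosome and was picked after its values were seen. Eif1, a factor of start codon selection, had 29.9 CPM in WT and 11.7 in KO leucine-free footprints, a ratio of -1.34 (-1.90 to -0.82) against 0.27 in RNA. Eif5, the GTPase-activating partner of eIF2, had 439, 398, 289 and 125 CPM and a ratio of -1.67. Its RNA was low too (-1.39), so the difference between footprints and RNA was -0.28. Eif1 and Eif5 were the 2 of 27 initiation factors that were called, both lower, and the list's median was -0.22 with 22 members below 0.

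**Figure D3:**
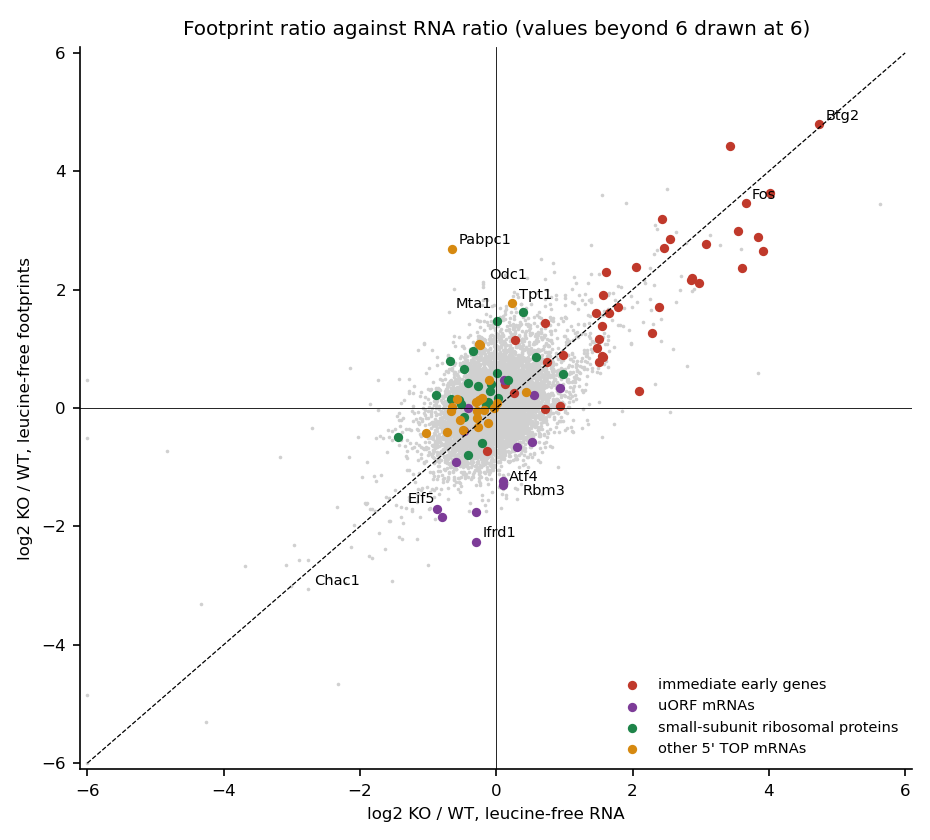
Each grey point is 1 of the 9099 protein-coding genes measured in both assays, with the log2 KO over WT ratio in leucine-free RNA on the horizontal axis and in footprints on the vertical axis, and 4 gene lists in colour. Points on the dashed line have equal ratios in both assays, and values past 6 on either axis are drawn at 6. Immediate early genes reach furthest to the upper right, on both sides of the line, with Pabpc1, Odc1, Mta1 and Tpt1 above it and Atf4, Ifrd1 and Rbm3 below it.

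Immediate early genes respond to growth factor or stress signals without new protein synthesis. They were the gene list with the highest median in KO leucine-free footprints. Of 39 measured members 28 were called higher and none lower, with a median log2 ratio of 1.70. RNA had 30 called higher and a median of 1.78, and 26 of the 28 were called higher in both assays. Replete footprints had 12 called higher and a median of 0.71. In 25 of the 28 the KO leucine-free library lay at least 2-fold above each of the other 3 footprint libraries, so for these the call rests on that library.

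Btg2, an antiproliferative gene, had 72, 30, 160 and 1504 footprint counts, the last far above the others. KO footprints were 28.1-fold higher without leucine (4.79 on the log2 scale, 4.29 to 5.38) and 1.58 higher on the log2 scale in replete medium. The RNA ratio of 4.74 left a difference of 0.05. Nr4a1, an orphan nuclear receptor, had 7.97, 11.5, 37.2 and 249 CPM, and both KO libraries were above both WT libraries. Its ratio was 4.42 (3.90 to 5.04) in footprints and 3.42 in RNA.

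Subunits of the AP-1 transcription factor were called higher. Fos had 2.96, 20.5, 11.9 and 227 CPM and a ratio of 3.46 (3.06 to 3.91). Jun had 68.9, 145, 152 and 989.7 CPM and a ratio of 2.77 (2.61 to 2.93). For both the WT leucine-free library was above WT replete but far below KO leucine-free. Junb, Jund and Fosb were also called higher, at 2.11, 2.29 and 2.66, and Fosl1 at 1.16. The zinc finger factors Egr1, Egr2 and Egr3 were also called higher. Egr1 and Egr3 had ratios of 1.70 and 2.88, and Egr2 had 84 and 694 counts in WT and KO leucine-free footprints. Egr1 was among the most abundant of the called genes, with 744 CPM in WT and 2421 in KO leucine-free footprints, and its ratio in replete medium was 1.53.

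Other early transcription factors and signalling genes had the KO leucine-free library highest as well. The Kruppel-like factor Klf4 had 15.3, 18.4, 26.4 and 96.5 CPM, with a ratio of 2.38, and Klf2 had 307, 129, 342 and 701 counts. The immediate early response genes Ier2 and Ier3 had ratios of 2.17 and 2.86, from 194 and 90.5 CPM in WT and 871 and 658 in KO leucine-free cells. Srf, the serum response factor, had a footprint ratio of 1.43 and an RNA ratio of 0.71.

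Feedback regulators of the MAP kinase pathway were split. The phosphatase genes Dusp1, Dusp2 and Dusp5 were called higher at 3.19, 3.64 and 2.70. Dusp1 had 9.22, 13.1, 10.5 and 121 CPM, and a replete ratio of 0.19. Dusp4 and Dusp6, which belong to the same phosphatase family, had ratios of -0.01 (-0.26 to 0.24) and 0.04 (-0.07 to 0.15). Spry4, a receptor tyrosine kinase inhibitor, had -0.72. Spry2 of the same family and Errfi1, another feedback inhibitor, were called higher at 1.15 and 1.39. For Dusp6 RNA was 520.1 CPM in WT and 991 in KO leucine-free cells, a ratio of 0.93 that footprints did not show. Zfp36, which encodes an mRNA decay factor, likewise had a lower ratio in footprints (2.37) than in RNA, by -1.23 on the log2 scale. Ccn1, a matrix-associated growth regulator, had 1133 and 2729.9 CPM in WT and KO leucine-free footprints, with ratios of 1.27 in footprints and 2.28 in RNA.

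Genes for secreted signals were also called in the higher direction. Of 9 measured cytokine, EGF ligand and NF-kappaB feedback genes 5 were called higher in footprints, and the same 5 also in RNA. Ptgs2, the inducible cyclooxygenase of the early gene list, had 84.2, 132, 201 and 1048 CPM and a ratio of 2.99 (2.83 to 3.16). The EGF receptor ligands Areg, Hbegf and Ereg had ratios of 2.67, 2.11 and 1.04, and the cytokine Lif 2.39 from 17 and 162 counts. The last of the 5 was Nfkbiz, an NF-kappaB regulator that is not secreted, at 1.22 and at 1.39 in replete footprints. Nfkbia, the main NF-kappaB inhibitor (-0.29), the chemokine Ccl2 (-0.11) and the macrophage growth factor Csf1 (-0.45) were not called. SRF and actin contractile genes had a median of 0.50 in leucine-free and 0.51 in replete footprints. Of 17, 3 were called higher, against 5.03% of all protein-coding genes. Acta2, smooth muscle actin, had 46.1 and 32.3 CPM in WT and 163 and 146 in KO footprints, higher in KO cells in both media.

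Of 29 immediate early genes with a promoter window 4 held the cyclic AMP response element TGACGTCA, against 3.76% of the 7363 measured protein-coding genes and 1.79% of all windows, and 4 held a CArG box, the SRF site, against 1.55% and 1.63%. Among all genes called higher the shares were 3.51% and 1.62%, and among all genes called lower 3.55% and 0.592%. TGACGTCA was also present in 2 of 11 uORF mRNAs with a window (18.2%), the list with the lowest median. It was present in Ppp1r15a, called lower, and in Maff, which was not called and is named for its match only. Herpud1, called lower, held a CArG box. Both motifs were searched on both strands in the same windows, and a match is again only a description. The stretches of 4 genes, all called higher, are printed because they include the gene with the highest ratio, Btg2, and show both motifs. Matches are in capitals. The stretch of Dusp5 ends in another CArG box.
Btg2 (chr1:134079303-134079332): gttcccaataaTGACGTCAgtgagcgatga
Dusp1 (chr17:26508597-26508626): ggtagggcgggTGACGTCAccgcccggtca
Dusp5 (chr19:53529053-53529082): ggggaaatacCCATATTTGGccttatatgg
Zfp36 (chr7:28379267-28379296): ccaggccgccCCATAAAAGGagaaagctcc

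Metabolic and growth programmes had smaller ratios. Cholesterol synthesis genes had 19 of 25 members above 0, a median of 0.29 in both leucine-free and replete footprints, and 3 called higher. These were Insig1, the sterol-regulated retention factor, Hmgcs1, the HMG-CoA synthase, and Tm7sf2, a sterol reductase. Insig1 had 62.2, 83.9, 75.7 and 284 CPM and a ratio of 1.76 (1.54 to 1.98), and Hmgcs1 had 107 and 344 CPM without leucine and a ratio of 1.68. The KO leucine-free library stood alone in these 2. Fatty acid synthesis genes had a median of -0.06 and none of 11 was called.

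Ribosome biogenesis genes had 27 of 28 members below 0 and a median of -0.38, and G2 and mitosis genes 23 of 25 below 0 and a median of -0.44, with no member of either called. Replete footprint medians were -0.21 and -0.20, and RNA medians -0.27 and -0.22. Members above 0 numbered 1 and 6 in replete footprints and 3 and 6 in RNA, so most were below 0 there as well. Polr1a, the large subunit of RNA polymerase I, had 399, 513, 369 and 303 CPM, with the KO leucine-free library lowest (-0.76). Nop56, a box C/D snoRNP core protein (0.41), was the exception. Mki67, the proliferation antigen, had 271, 407, 253 and 233 CPM. S phase genes had a median of -0.27, with the DNA polymerase subunit Pola1, on the X chromosome, lower at -1.08 and the transcription factor E2f1 higher at 1.10.

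Giant cytoskeletal proteins had medians of opposite sign in the 2 media. The list's median was -0.36 in leucine-free footprints, where 14 of 16 were below 0, and 0.38 in replete footprints, where 15 of 16 were above 0. Dync1h1, the dynein heavy chain, had 150.4, 365, 207 and 159 CPM. Plec, the linker protein plectin, had 178, 314, 249 and 138 CPM. In both genes the WT leucine-free library was high, and both were called lower, at -1.20 and -1.18. The leucine-free minus replete difference was -1.66 (-1.84 to -1.48) for Dync1h1 and -1.67 (-1.85 to -1.48) for Plec, and RNA without leucine was low as well, at -0.92 and -0.71. Over all protein-coding genes this difference was called positive for 321 (3.50%) and negative for 123 (1.34%). The leucine-free footprint ratio was almost unrelated to exonic length across the 9171 genes (Spearman rho -0.05). Ppl, the desmosomal linker periplakin, was the called higher member, from 4 and 37 counts, and had 2.46 in replete footprints.

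Protein folding and lysosomal lists were near the middle. Endoplasmic reticulum chaperones had a median of 0.07, with Herpud1 the only one called. Heat shock genes had -0.30, with the co-chaperone Dnaja1 lower at -1.18 and the small heat shock gene Hspb8 at -4.66 from 37 and 2 counts. Hspb8 was also low in replete footprints (-2.91) and in leucine-free RNA (-2.33), while Dnaja1 had -0.23 and -0.15 there. Lysosomal hydrolases had a median of -0.05 with 3 of 40 lower, among them Manba, the beta-mannosidase (-1.70), and Gla, the alpha-galactosidase (-1.11). Lysosomal membrane and v-ATPase genes had -0.15 with 3 of 28 lower, namely the proton pump subunits Atp6ap2 (-1.18) and Atp6v1a (-1.08) and the membrane protein Lamp2 (-1.06). Manba and the Ragulator gene Lamtor3 lie on chromosome 3, and Gla, Atp6ap2 and Lamp2 on the X chromosome, which are taken up below. No member was called among 28 autophagy genes (median -0.04), 27 macropinocytosis and endosome genes (-0.19), 31 proteasome subunits (-0.09), 21 stalling and rescue factors (-0.12), 16 glycolysis genes (-0.28), 8 integrins (0.36), 7 mitochondrially encoded genes (-0.30) or 17 RAS, p53 and MYC genes (0.34).

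The last lists had 1 to 2 calls each, where 5.03% of all protein-coding genes were called higher and 2.20% lower. Calls this few say little about a list. The 42 nuclear oxidative phosphorylation genes had a median of -0.15, with Cox7c, a cytochrome oxidase subunit, higher at 1.24 from 10 and 43 counts. The 19 glutathione and NRF2 targets had -0.18, with Fth1 higher and the heme oxygenase Hmox1 lower at -1.03. The 22 replication-dependent histones, a multigene family whose reads are partly shared, had -0.15. The linker histone Hist1h1a was called lower, from 94 WT and 59 KO counts, and had -2.48 in replete footprints. Polyamine genes had 0.11 over 7 members, with Odc1 and the spermine oxidase Smox higher, the latter at 1.31. The 13 interferon and antigen presentation genes had -0.06, with Ifit1, an interferon-induced RNA-binding protein, lower at -1.17. The class I gene H2-K1 was higher at 1.22, and at 1.43 in replete footprints. Of 7 imprinted genes Grb10 was lower and Gnas, the stimulatory G protein alpha subunit, higher at 1.99 and at 1.13 in replete footprints. The median of these 7 was -0.22 and turns to 0.15 at a mean count of at least 10 and to 0.38 with no filter. Among the 318 genes of other classes, whose short or repeated transcripts are counted unevenly, 24 were higher and 14 lower.

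**Figure D4:**
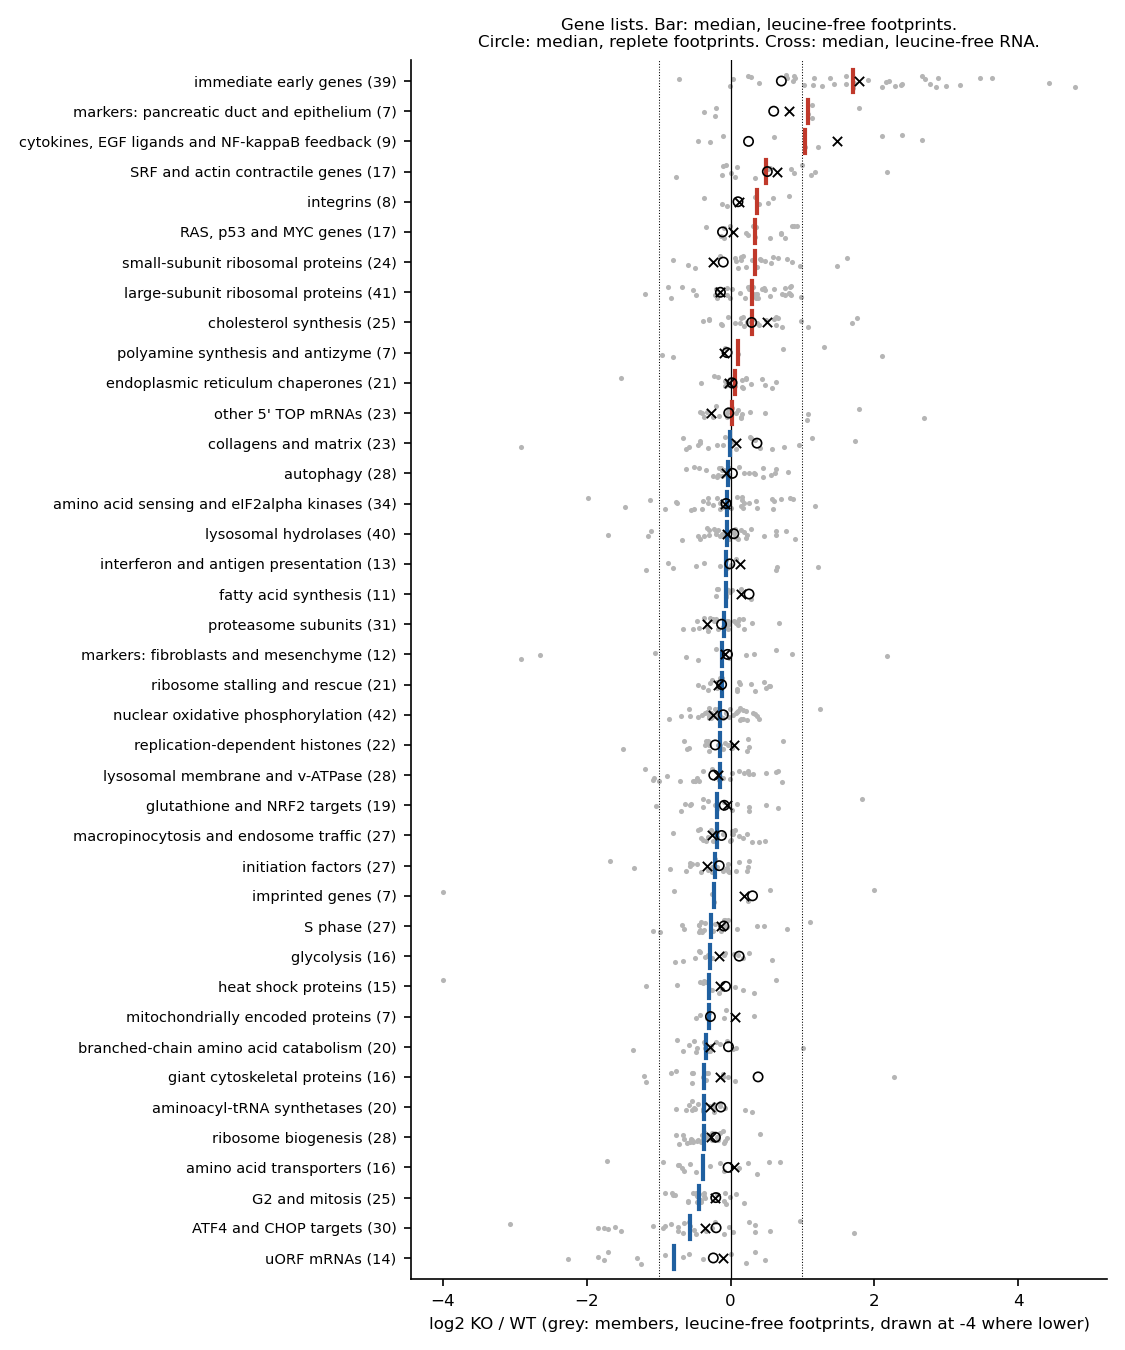
For each gene list with at least 7 measured members (number in brackets), grey points are the members' log2 KO over WT ratios in leucine-free footprints (drawn at -4 where lower) and the bar their median, red above 0 and blue below. Circles and crosses are the medians of the same list in replete footprints and in leucine-free RNA. Immediate early genes stand at the top at 1.70 and uORF mRNAs at the bottom at -0.78, and the giant cytoskeletal list is the one with its circle at 0.38 and its bar at -0.36.

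Genes that differed between genotypes in both media included the most extreme ratios. Grb10 had 943 and 271 footprint counts in WT and 6 and 1 in KO cells, in replete and leucine-free medium, with an RNA ratio of -7.38. Its leucine-free ratio of -8.21 has an interval from -14.23 to -6.43, set by 1 KO count. Xdh, the xanthine dehydrogenase of purine breakdown, had 237, 58, 3 and 3 counts. The uncharacterised gene AW551984 had 139, 36, 7 and 1. All 3 were nearly absent from both KO libraries.

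Others at the low end were Sprr2k, a cornified envelope gene of a multigene family (-3.30), Eid2, an inhibitor of differentiation (-3.01), the Wnt receptor Ror2 (-2.96), the glycosyltransferase Galnt3 (-2.86), Ranbp3l (-2.67), the intestinal homeobox gene Cdx2 (-2.65) and the X-linked genes Smarca1, a chromatin remodeller (-2.57), and Mid2, a ubiquitin ligase (-2.57). Each had KO levels below WT in replete medium too, with replete ratios from -3.56 for Sprr2k to -1.76 for Ror2. Slc1a3 belongs with them. Igfbp4, an IGF-binding protein (1.57), Lepr, the leptin receptor (1.12), Sorbs2, an actin adaptor (1.19), and Notch1 (1.03) were higher in KO cells in both media, and Ptn, a heparin-binding growth factor (-1.63), Capn6 (-1.91) and the splicing regulator Mbnl3 (-1.69) lower. These 7 were picked after their values were seen.

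Several of the highest ratios outside the early genes rest on few WT counts. Ngfr, a neurotrophin receptor, had 31, 4, 128 and 101 counts and a ratio of 3.71 (2.42 to 5.72). Afap1l1, an actin-associated adaptor, had 3 and 72 leucine-free counts (13.4-fold), and Cpn1, the catalytic chain of carboxypeptidase N, 4 and 84 (3.44, 2.14 to 5.46). Edil3, a secreted integrin ligand (3.09), Tppp3, a tubulin-binding protein (3.03), and Vgf, a neuropeptide precursor (2.98), each had 5 to 6 WT counts. Nt5dc2 with 18 and 361 counts (3.46) and Scube3, a secreted EGF-domain protein, with 19 and 261 (2.92) rest on more. In all of them both KO libraries exceeded both WT libraries by at least 2-fold.

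Matrix and lineage markers went both ways. Of 23 collagen and matrix genes 2 were higher, the basement membrane genes Agrn (1.74) and Lama5 (1.14), and 1 lower, Col1a1 (-2.91). All were also called in replete footprints, at 1.31, 1.02 and -1.46, where 5 of the 23 were higher and 1 lower. Col1a1, a chain of fibrillar collagen type I, had 46.9, 45.9, 17.0 and 5.96 CPM, low in both KO libraries and lowest without leucine. The duct and epithelium markers Krt8 (1.13), Krt18 (1.13), Sox9 (1.07) and Tspan8 (1.79) were called higher, 4 of 7 measured of the 18 listed, while Pdx1 and Spp1 were at -0.37 and -0.22. Of 12 measured of 20 fibroblast and mesenchyme markers, S100a4 (-2.65), Col1a1 and Snai2 (-1.05) were lower and Acta2 higher. The summed level of the 18 duct and epithelium markers was 2084 CPM in WT and 2305 in KO leucine-free footprints, and that of the 20 fibroblast and mesenchyme markers 7475 and 6420.0 CPM. In such bulk libraries fewer cells of a kind and less RNA per cell cannot be told apart, and the part of cell makeup in any result was not tested.

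X-linked genes had lower ratios than autosomal ones. Of 295 measured X-linked protein-coding genes 265 (89.8%) had a ratio below 0, the median was -0.58, and 39 (13.2%) were called lower and 2 higher. The autosomal median over 8869 genes was 0.02, with 163 (1.84%) called lower and 459 higher. The X median was -0.55 in replete footprints, -0.47 in leucine-free RNA and -0.44 in replete RNA, all below 0. Chromosome 3 had a median of -0.24 in leucine-free footprints, -0.33 in replete footprints and -0.31 in leucine-free RNA. On it 22 of 438 genes (5.02%) were called lower. Chromosome 5 had a median of -0.13. Chromosome 7 had 25 of 624 genes called lower (4.01%), a smaller share than chromosome 3, with a median of -0.09 and 29 called higher. Of the genes above, those on the X chromosome and called lower are Rpl39, Rbm3, Rragb, Gla, Atp6ap2, Lamp2, Pola1, Smarca1, Mid2, Capn6 and Mbnl3. What underlies these chromosome medians was not tested.

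**Figure D5:**
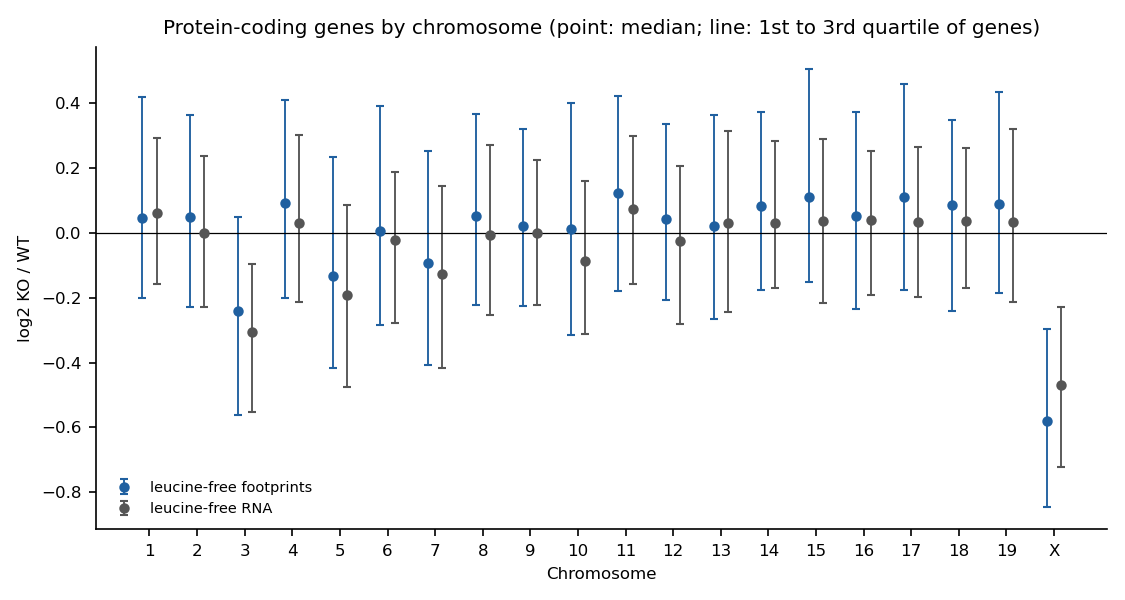
Points are the medians of the log2 KO over WT ratio of protein-coding genes on each chromosome, in leucine-free footprints (blue) and leucine-free RNA (grey), and lines run from the first to the last quartile boundary of genes. The X chromosome stands at -0.58 and -0.47 and chromosome 3 at -0.24 and -0.31, and the other autosomes lie nearer 0.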

How the data were processed

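KRPC-A cells, Gcn2 WT or KO, were sampled after 1 h in replete or leucine-free medium by RNA-seq and ribosome profiling, with 1 library per state and assay (8 in all). The deposited values are raw read counts per gene, made by the authors with featureCounts 1.6.4 over exons of Ensembl 96 (GRCm38), per the file headers. The headers show no option for strand, multi-mapping or overlap, so reads shared by gene copies or overlapping genes were not counted and antisense reads were not separated. The submitters' processing notes also name cutadapt and STAR. Of 303 named genes 101 overlap exons of another gene, 78 of them on the opposite strand.

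Counts were scaled within each assay by TMM factors (edgeR 4.0.16, R 4.3.3) over protein-coding genes, with symbols found for 99.8% of gene IDs and classes from the RefSeq table. A prior count of 0.5 was added for ratios. Ratios carry 95% exact conditional binomial intervals, levels exact Poisson intervals, and differences of ratios Wald intervals (Python 3.11.15, scipy 1.17.1). All cover counting error only, which PCR duplicates can make too narrow. The ratio code was tested on simulated data. Genes needed a mean count of at least 30 over the 4 footprint libraries. No test was made, since each group is 1 library. The genes named are Eif2ak4 and Atf4, the 15 highest and 15 lowest called protein-coding ratios with a mean RNA count of at least 30, the 5 highest and 5 lowest without that minimum, and of each of the 43 lists the 3 highest, the 3 lowest and every called member. The text prints the highest and lowest genes in full and, of the lists, only some members, and genes outside the rule are marked. The genes, lists and comparison were chosen with earlier results of these data known. Promoter windows are RefSeq's (GRCm38.p6) and matched 7363 of 9171 genes. The alternatives changed scaling (DESeq2 1.42.0 size factors among them), the count minimum, the prior, the gene set, the length trend and the call rule. Of these, autosomal genes only, a minimum over the 2 leucine-free libraries and intervals wholly past 2-fold were chosen after seeing the data. A few genes of the lists are not reported here.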

Additional observations from a re-analysis of the deposited data

Results flagged for a closer look

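Mir6236 was called in opposite directions in the 2 media, the one gene of the 9489 for which this happened. Its KO over WT log2 ratio was -1.28 in leucine-free footprints, from 108 WT and 79 KO counts, and 1.38 in replete footprints, from 114 and 220 counts. RNA-seq counts assigned to it had ratios of the same signs, -0.94 and 1.64. The difference between media was not tested, since each state is 1 library.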

How the results depend on the processing

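No paired analysis was possible because each group is 1 library, and no library could be left out for the same reason. No named gene that was called changed sign under any alternative run for it. Sign changes came only where values were small, in 12 list medians and 8 named genes over all settings, the furthest being imprinted genes at 0.38 with no filter and 0.15 at a mean count of at least 10, against -0.22. The 485 higher genes became 249 with a mean count of at least 100, 1250 at 1.5-fold, 158 when ratios also had to lie beyond 3 robust SDs of genes of like count and 136 with intervals wholly past 2-fold. The 216 lower genes became 107, 839, 54 and 74 under the same changes, and 365 with no filter beyond 1 count. Each other alternative left both counts within 1.5 times. Higher genes made up 59.8% to 74.5% of calls (69.2% as reported), and with library totals the median of all genes was 0.06. Of the list medians 431 values stayed within the spread allowed and 8 moved. The mitochondrially encoded list had -0.24 with library totals and -0.36 with the length trend removed, duct and epithelium markers 0.43 at a mean count of at least 100 and 0.49 with no filter, polyamine genes 0.42 at a mean count of at least 10, 0.78 with no filter and 0.42 on autosomes only, and fibroblast markers -0.45 with no filter. The count minimum and gene set settings change which or how many genes enter. Library totals move every ratio by nearly the same amount, as they do the median of all genes. For the length setting the cause was not tested. With a prior of 5, Grb10 had -6.05 and AW551984 -3.25. Depth limits genes with few counts in the WT leucine-free library, 74 of the protein-coding genes called higher having fewer than 10 counts there, and no interval covers variation between cultures.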
